A study of Mus musculus with 12 samples.

Results

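MHC class II antigen presentation was followed through 6 genes in 12 mouse tumours. The genes were taken by name: H2-Aa, H2-Ab1, H2-Eb1, H2-DMa, Cd74 and Ciita, with every probe set on the array that carried only 1 of these gene symbols. These gave 10 probe sets for 6 genes, of 20380 single-symbol probe sets for 12393 genes in all. The tumours were C26, a mouse colon carcinoma line, grown under the skin of the dorsal flank of Balb/c mice aged 6 weeks. On day 8, at a volume of about 50 mm3, mice received phosphate-buffered saline (PBS), free doxorubicin (Dox, a DNA-intercalating chemotherapy drug) or CP-Dox (doxorubicin attached to a chimeric polypeptide carrier), and tumours were taken 48 h later. Each group held 4 mice, with 1 tumour and 1 Affymetrix array per mouse. All groups shared the cell line, strain, age and time, no source used here states the dose, and no group with the carrier alone was among the samples. C26 is 1 line, and the host is an immunocompetent strain, so the samples hold host immune cells as well as tumour cells.

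MHC class II molecules are pairs of an alpha and a beta chain that present peptides from the endosomal pathway to CD4+ helper T cells. They are made mainly by dendritic cells, macrophages and B cells, and other cells can be induced to make them by interferon gamma. In the endoplasmic reticulum the new pair is bound by the invariant chain, which directs it to endosomes. There proteases trim the invariant chain to a remnant that fills the groove, and the H2-DM molecule exchanges this remnant for antigen peptides. Transcription of the chains, of H2-DM and of the invariant chain depends on the coactivator CIITA. CIITA does not bind DNA itself but is recruited by RFX, CREB and NF-Y, factors that sit on the X and Y boxes of class II promoters.

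The shared promoter layout is shown for H2-Aa and H2-Eb1 because they are the members in the promoter table whose window holds both boxes' letters. The sequences are those of RefSeq on GRCm38.p6, the 250 bases before each gene's annotated start, read 5′ to 3′ along the gene's strand. H2-Aa lies on the minus strand (chr17:34287824-34288073) and H2-Eb1 on the plus strand (chr17:34305617-34305866). Capitals mark GCAACT, letters that occur in X boxes, and CTGATTGG, which holds the inverted CCAAT of the Y box to which NF-Y binds.
H2-Aa: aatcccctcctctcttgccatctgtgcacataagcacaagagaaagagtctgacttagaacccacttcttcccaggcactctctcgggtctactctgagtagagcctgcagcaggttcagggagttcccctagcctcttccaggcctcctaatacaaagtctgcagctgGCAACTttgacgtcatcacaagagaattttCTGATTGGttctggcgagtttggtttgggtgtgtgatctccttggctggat
H2-Eb1: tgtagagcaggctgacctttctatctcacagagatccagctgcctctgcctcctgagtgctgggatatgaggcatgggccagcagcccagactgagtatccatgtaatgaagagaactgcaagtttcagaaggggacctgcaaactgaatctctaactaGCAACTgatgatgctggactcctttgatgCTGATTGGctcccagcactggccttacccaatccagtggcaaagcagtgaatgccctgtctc

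The first base of GCAACT lay at -81 relative to the start in H2-Aa and at -91 in H2-Eb1. The first base of CTGATTGG lay at -51 and -62, which left 24 and 23 bases between the 2 runs of letters. H2-Eb2, a further beta chain gene of the region that no single-symbol probe set measured, had the same order with 23 bases between, printed here from one run to the other for comparison (GRCm38.p6, plus strand, within chr17:34325425-34325724).
H2-Eb2: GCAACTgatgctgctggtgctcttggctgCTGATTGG

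Over 32851 promoter windows of 300 bases in the same table (250 before to 50 after the start, both strands searched), 10.89% held GCAACT and 4.097% held CTGATTGG, which itself contains ATTGG. The run GCAACT followed on the same strand by CTGATTGG with 20 to 26 bases between occurred in 5 windows (0.01522%), those of H2-Aa, H2-Eb1, H2-Eb2, Gstz1 and Tigd3. These letters were chosen after the H2-Aa and H2-Eb1 promoters had been seen, so the counts describe the layout and are no test of it. Both annotated H2-DMa windows held neither GCAACT nor CTGATTGG. These windows (chr17:34122582-34122881 and chr17:34125268-34125567) lie inside the listed span of the gene and at neither end of it. They may therefore not cover its class II promoter, and no conclusion on its boxes is drawn. The H2-Oa window held CTGATTGG alone, at -46. Of the members, 3 were in the promoter table. H2-Ab1, Cd74 and Ciita were not among them.

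Of the members, 4 lie in the MHC region of chromosome 17 (RefSeq positions, GRCm38.p6). H2-DMa (gene ID 14998) is at chr17:34119693-34139101, H2-Ab1 (14961) at chr17:34263227-34269418, H2-Aa (14960) at chr17:34282744-34287823 and H2-Eb1 (14969) at chr17:34305867-34316674. Cd74 (16149) is on chromosome 18 from 60803849 to 60812652, and Ciita (12265) is at chr16:10480014-10531064.

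Signals are on the log2 scale, as the authors deposited them after RMA, a method that corrects background, sets all arrays to 1 distribution and summarizes the probes of a set. A step of 1 is a doubling of signal, and levels are compared between arrays for 1 probe set at a time, since probe sets differ in how brightly they hybridize. The array medians lay between 7.106 and 7.2267, and no 2 arrays held identical values. CP-Dox replicate 2 stood apart from the other CP-Dox tumours over the whole array (the CP-Dox against PBS calls went from 691 to 2363 genes without it), and marker genes of skin were high in CP-Dox replicates 1 and 3, so results that rest on these arrays are given with and without them.

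H2-Aa encodes the alpha chain of the H2-A (I-A) molecule. Its probe set 1435290_x_at read 10.56, 11.01, 12.32 and 12.37 in PBS replicates 1 to 4, 11.67, 12.09, 11.57 and 12.48 in Dox, and 11.65, 10.47, 12.45 and 12.33 in CP-Dox. The lowest tumours were CP-Dox replicate 2 and PBS replicate 1, the highest Dox replicate 4 and CP-Dox replicate 3, and the 3 groups overlapped. The group means were 11.56 ± 0.92, 11.95 ± 0.42 and 11.73 ± 0.91 (SD, n = 4 each), and the 12 tumours spanned 2.01 log2 units, a 4.03-fold range.

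H2-Ab1 encodes the beta chain that pairs with it. The values of 1450648_s_at were 9.92, 10.72, 11.64 and 11.76 in PBS, 11.21, 11.39, 11.005 and 12.11 in Dox, and 11.36, 10.01, 12.02 and 11.97 in CP-Dox. PBS replicate 1 and CP-Dox replicate 2 were again the lowest and Dox replicate 4 the highest, with all groups overlapping. The means were 11.01 ± 0.86, 11.43 ± 0.48 and 11.34 ± 0.94 (SD, n = 4 each).

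H2-Eb1, the beta chain of H2-E (I-E), read 9.93, 10.71, 11.81 and 11.98 in PBS, 11.23, 11.53, 11.05 and 12.08 in Dox, and 11.25, 10.03, 12.12 and 12.03 in CP-Dox (1417025_at). The groups overlapped, with the same 2 tumours at the bottom. The means were 11.11 ± 0.97, 11.47 ± 0.45 and 11.36 ± 0.97 (SD, n = 4 each), and the range over the tumours was 2.19 for H2-Eb1 as for H2-Ab1.

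Cd74 encodes the invariant chain. Its probe set 1425519_a_at gave 11.04, 11.96, 12.55 and 12.58 in PBS, 12.21, 12.51, 12.02 and 12.93 in Dox, and 12.34, 11.10, 12.96 and 12.91 in CP-Dox. Cd74 and H2-Eb1 placed all 12 tumours in the same order, and the groups overlapped. Group means were 12.03 ± 0.72, 12.42 ± 0.39 and 12.33 ± 0.86 (SD, n = 4 each), and the range of 1.92, or 3.78-fold, was narrower than those of the chains.

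H2-DMa encodes the alpha chain of H2-DM, the peptide-exchange molecule. It read 8.38, 8.95, 9.37 and 9.70 in PBS, 9.34, 8.75, 9.22 and 9.90 in Dox, and 9.44, 7.96, 10.20 and 10.56 in CP-Dox (1422527_at). CP-Dox held both the lowest tumour (replicate 2) and the 2 highest (replicates 3 and 4), so that its spread enclosed both other groups. The means were 9.10 ± 0.57, 9.30 ± 0.48 and 9.54 ± 1.15 (SD, n = 4 each), and the range of 2.599, or 6.06-fold, was the widest of the 6 genes.

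Ciita encodes the coactivator. Its brighter probe set, 1421210_at, read 5.17, 5.72, 5.71 and 5.98 in PBS, 5.35, 5.86, 5.45 and 6.31 in Dox, and 5.33, 4.97, 5.69 and 6.53 in CP-Dox. The highest tumours were CP-Dox replicate 4 and Dox replicate 4, and the lowest was CP-Dox replicate 2. Group means were 5.64 ± 0.34, 5.74 ± 0.44 and 5.63 ± 0.67 (SD, n = 4 each). Both Ciita probe sets were dim, and Ciita was in the dimmest 40% of genes by mean.

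**Figure D1:**
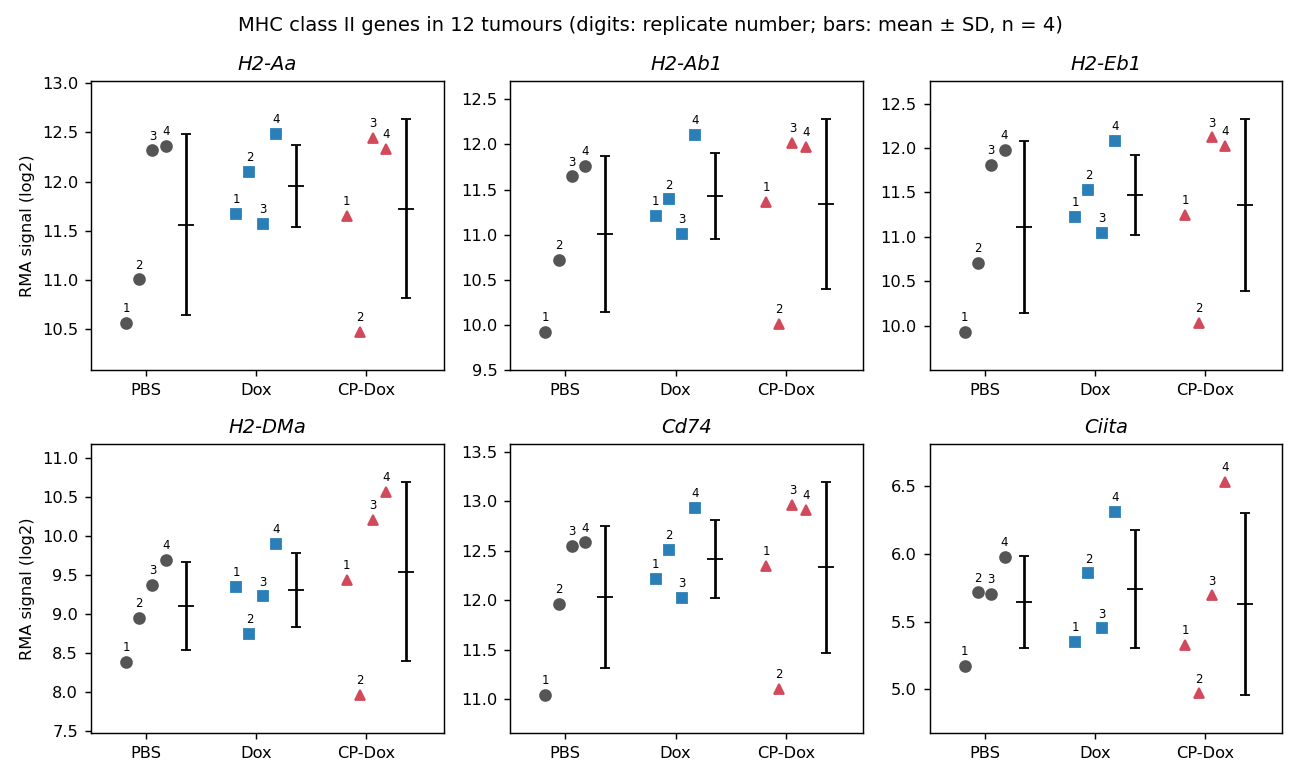
RMA signal (log2, y axis, a separate scale per gene) of the 6 class II genes in the PBS, Dox and CP-Dox tumours. Each point is 1 tumour with its replicate number, and the bars are the mean ± SD of 4 tumours. PBS replicate 1 and CP-Dox replicate 2 lie lowest for every gene shown, and the groups overlap throughout.

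Probe sets of 1 gene were correlated over the tumours. The lowest Pearson correlation between probe sets of a gene over the 12 arrays was 0.98 for H2-Aa (2 probe sets), 0.9967 for H2-Ab1 (3) and 0.8512 for Ciita (2). The second Ciita probe set, 1421211_a_at, was dimmer still and varied less, at 4.87, 4.81, 5.10 and 5.27 in PBS, 4.87, 4.87, 4.96 and 5.15 in Dox, and 4.74, 4.67, 4.93 and 5.51 in CP-Dox. It too was highest in CP-Dox replicate 4 and lowest in CP-Dox replicate 2. The endings _s_at and _x_at mark probe sets whose probes can match related transcripts, so the signal of H2-Aa and H2-Ab1 may include RNA of near relatives. These arrays give RNA of whole tumours, in which fewer cells of a type and less RNA per cell cannot be told apart.

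The spread between tumours of 1 group was large for these genes. The residual SD of the fit was 0.783 for H2-Aa, 0.787 for H2-Ab1, 0.831 for H2-Eb1, 0.791 for H2-DMa, 0.688 for Cd74 and 0.501 for Ciita. Those of H2-Aa, H2-Ab1, H2-Eb1 and H2-DMa lay at percentiles 97.2 to 97.4 of the 12393 genes, that of Cd74 at 96.0 and that of Ciita at 91.5. The standard errors of their fold changes, 0.32 to 0.52, were accordingly well above the median of 0.129 over all genes.

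None of the 6 genes changed between CP-Dox and PBS by limma's moderated test with Benjamini-Hochberg adjustment over all 12393 genes (threshold 0.05). Over all genes, 5.58% were called (691), with 2.35% higher and 3.23% lower. H2-DMa had the largest difference in CP-Dox, 0.44 ± 0.50 on the log2 scale (± SE, limma adjusted p = 0.607), with a 95% confidence interval of 0.640- to 2.89-fold. For H2-Ab1 the difference was 0.33 ± 0.49 (adjusted p = 0.709; 0.594- to 2.66-fold), and for Cd74 0.30 ± 0.43 (adjusted p = 0.702; 0.636- to 2.37-fold). These intervals hold both a lower level and more than a doubling, so the 4 tumours per group leave the direction undetermined. H2-Eb1 was at 0.25 ± 0.52 (adjusted p = 0.795; 0.538- to 2.62-fold) and H2-Aa at 0.16 ± 0.49 (adjusted p = 0.861; 0.531- to 2.36-fold). Ciita was at -0.01 ± 0.32 (adjusted p = 0.982; 0.612- to 1.60-fold). Before adjustment, none of the members passed 0.05, compared with 23.5% of all genes, and the lowest unadjusted p of limma's test was 0.390. The groups did not overlap for 0 of the 6, compared with 12.1% of all genes. The median over the 6 was 0.27, and that of all genes was -0.04.

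In Dox against PBS, the 6 differences were 0.39 for H2-Aa, 0.42 for H2-Ab1, 0.36 for H2-Eb1, 0.20 for H2-DMa, 0.38 for Cd74 and 0.10 for Ciita, each with limma adjusted p = 0.995. No gene on the array passed the threshold in this comparison (0% called), and 4.5% had unadjusted p under 0.05, among them 0 of the 6. The widest interval was that of H2-Eb1, 0.583- to 2.84-fold, and the narrowest that of Ciita, 0.661- to 1.73-fold. The Dox tumours had the smallest SD of the 3 groups for all members but Ciita, and their means were the highest for H2-Aa, H2-Ab1, H2-Eb1, Cd74 and Ciita. For each of those genes the order of the means was Dox first, but no neighbours in the order differed beyond the spread between tumours. The order turned with the probe set: the second H2-Aa probe set had CP-Dox (11.61) above Dox (11.58), and the second Ciita probe set had PBS highest (5.01) and both other groups at 4.96. Groups that did not overlap made up 3.84% of all genes and 0 of the 6.

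The same doxorubicin in its free and carrier-bound form was compared directly. CP-Dox minus Dox was -0.23 for H2-Aa (limma adjusted p = 0.842; 0.405- to 1.80-fold), -0.09 for H2-Ab1 (0.945; 0.444- to 1.99-fold), -0.12 for H2-Eb1 (0.932; 0.418- to 2.04-fold) and -0.09 for Cd74 (0.936; 0.488- to 1.81-fold). H2-DMa was the 1 member with a positive value, 0.24 (0.835; 0.556- to 2.51-fold), and Ciita was at -0.11 (0.888; 0.572- to 1.4997-fold). These intervals do not show that the 2 forms act alike on class II genes, since those of H2-Aa, H2-Ab1, H2-Eb1 and Cd74 include a halving and those of H2-DMa and H2-Eb1 a doubling. Of all genes, 0.226% were called (28), 16.1% had unadjusted p under 0.05 and 9.63% had groups that did not overlap, with 0 of the 6 members in each of these counts. The comparisons share samples pairwise, so their values for a member are not independent. With every probe set fitted as its own feature, 0 of the 10 class II probe sets were called in the 3 comparisons. Of the 20380 probe sets 5.39% were called for CP-Dox against PBS, 0% for Dox against PBS and 0.191% between the 2 drug forms.

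**Figure D2:**
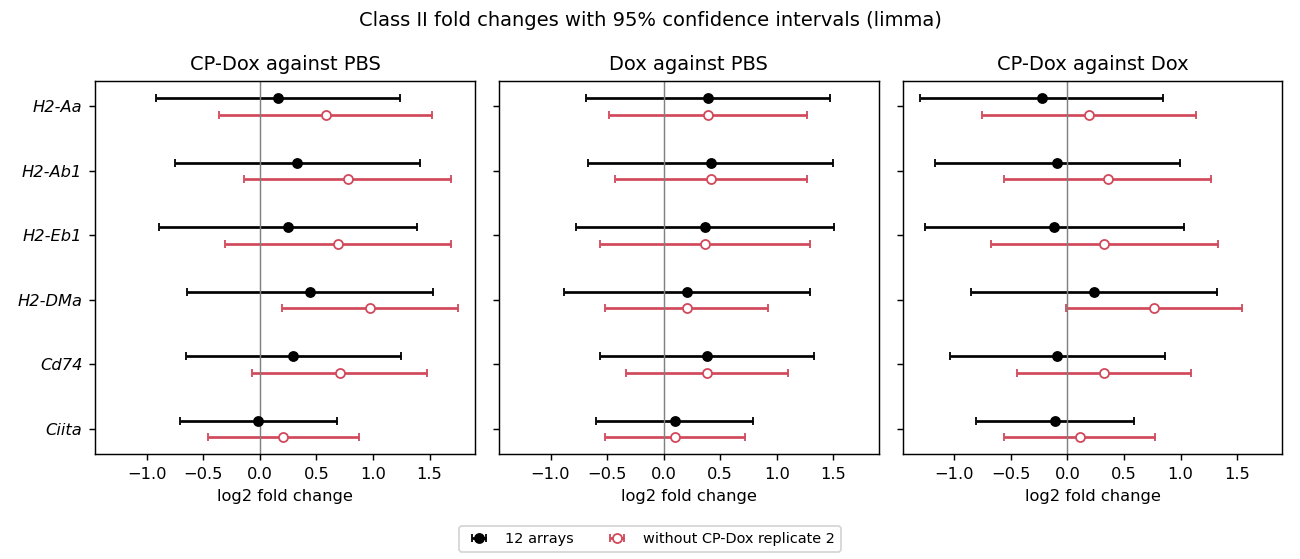
Log2 fold change (x axis) of each class II gene (y axis) in the 3 comparisons, with the 95% confidence interval from limma. Filled points use all 12 arrays and open points leave out CP-Dox replicate 2. With all arrays every interval spans 0. Without that replicate the H2-DMa interval in CP-Dox against PBS lies above 0, with limma adjusted p = 0.0794.

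CP-Dox replicate 2 weighed heavily on these values. Without it, the CP-Dox minus PBS difference of H2-DMa was 0.97 ± 0.35 (limma adjusted p = 0.0794), H2-Ab1 was at 0.77 ± 0.42 (0.215), Cd74 at 0.70 ± 0.35 (0.184), H2-Eb1 at 0.69 ± 0.46 (0.312), H2-Aa at 0.58 ± 0.43 (0.369) and Ciita at 0.21 ± 0.30 (0.666). The median of the 6 was then 0.70 and 0 were called, in a fit in which the share of all genes called rose to 19.1% (9.9% higher and 9.17% lower). Against Dox the values without it were between 0.11 for Ciita and 0.76 for H2-DMa (adjusted p = 0.183), with 0 of the 6 called and 9.28% of all genes called. Dox against PBS had 0% called in that fit. Because the replicate was low for these genes, leaving it out raises the CP-Dox mean by construction. Without the 2 tumours with skin markers, CP-Dox replicates 1 and 3, 0 members were called against PBS, in a fit that called 2 genes in all. The CP-Dox minus PBS values turned negative for H2-Aa (-0.16), H2-Eb1 (-0.08), Cd74 (-0.03) and H2-Ab1 (-0.02), and Ciita turned positive (0.11). Against Dox they were then -0.55 for H2-Aa, -0.44 for H2-Ab1 and H2-Eb1, -0.41 for Cd74, -0.040 for H2-DMa and 0.0099 for Ciita, each with limma adjusted p of at least 0.979.

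The members varied together from tumour to tumour. Over the 12 arrays the Pearson correlations among H2-Aa, H2-Ab1, H2-Eb1 and Cd74 were 0.966 to 0.994, and those of H2-DMa with these 4 were 0.837 to 0.898. They are given as a description, since the arrays share their treatment groups and the genes were chosen as 1 pathway. Ordered by the mean of the 4 genes relative to the PBS mean, PBS replicate 1 (-1.06) and CP-Dox replicate 2 (-1.03) stood lowest, followed by PBS replicate 2 (-0.33). Dox replicate 3 (-0.02), Dox replicate 1 (0.15), CP-Dox replicate 1 (0.22) and Dox replicate 2 (0.45) were in the middle. PBS replicate 3 (0.65), PBS replicate 4 (0.74), CP-Dox replicate 4 (0.88), CP-Dox replicate 3 (0.96) and Dox replicate 4 (0.97) were highest. Each treatment thus had tumours in the upper part of this order, and both PBS and CP-Dox had tumours at its lower end. H2-DMa departed from the order mainly in Dox replicate 2, where it was low, and in CP-Dox replicate 4, where it was the highest.

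**Figure D3:**
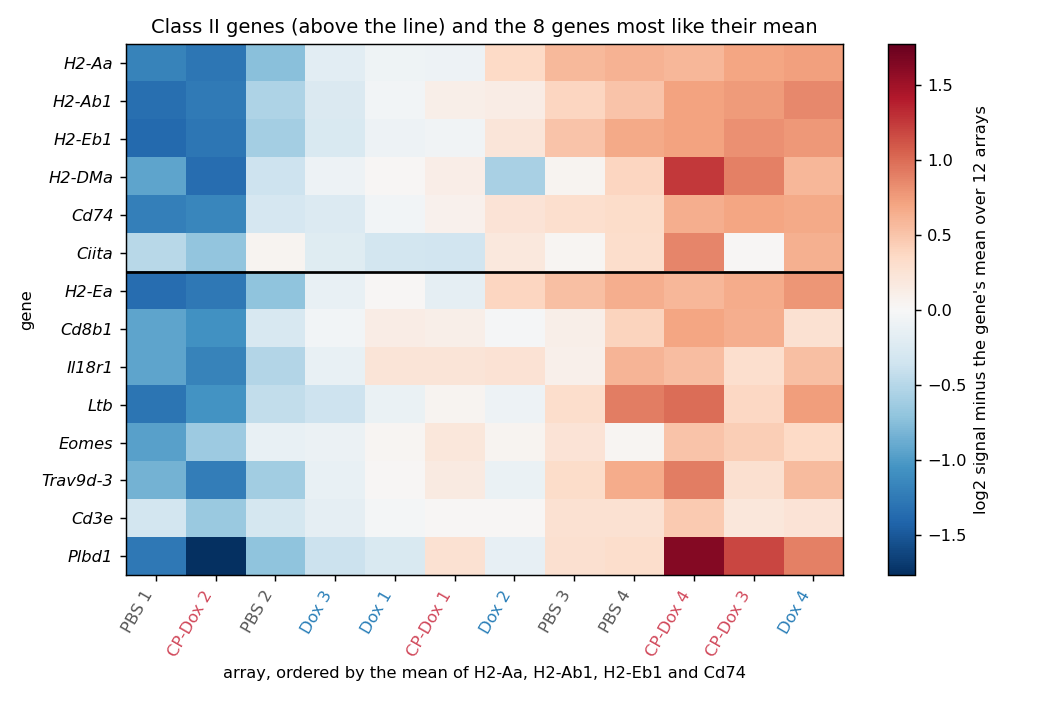
Log2 signal minus the gene's mean over the 12 arrays (colour) for the 6 class II genes and the 8 other genes most like them (rows), with the arrays (columns) ordered by the mean of H2-Aa, H2-Ab1, H2-Eb1 and Cd74. The order runs from PBS replicate 1 and CP-Dox replicate 2 to Dox replicate 4, and the 3 treatments are mixed along it.

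Ciita was followed against its targets, with 5 relations tested over the 12 arrays. Its Pearson r was 0.802 with Cd74 (permutation p = 0.00194), 0.792 with H2-Eb1 (permutation p = 0.00238), 0.791 with H2-Ab1 (permutation p = 0.00213), 0.770 with H2-Aa (permutation p = 0.00350) and 0.767 with H2-DMa (permutation p = 0.00370). The Benjamini-Hochberg adjusted permutation p was 0.00370 for each of the 5 (two-sided). Spearman's rho was 0.741 with H2-Aa and H2-Ab1 (permutation p = 0.00757 and 0.00735), 0.706 with H2-Eb1 and Cd74 (permutation p = 0.0133 and 0.0129) and 0.622 with H2-DMa (permutation p = 0.0347). Adjusted over the 5, the Spearman permutation p was 0.0167, and 0.0347 for H2-DMa. The relation was thus the same in sign for every target, and looser than that among the targets themselves. H2-Aa, H2-Ab1, H2-Eb1 and Cd74 correlated at 0.966 to 0.994 with each other, so the 5 relations are not separate results. A relation of this size was not particular to Ciita. Outside the members, 184 genes (1.49%) had r of at least 0.8 with the mean of those targets.

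Without the 2 arrays farthest from the Ciita median, CP-Dox replicates 2 and 4, r was 0.709 to 0.727 for H2-Aa, H2-Ab1, H2-Eb1 and Cd74. For H2-DMa it fell to 0.496, so that this relation rested in good part on those 2 tumours. With each value taken relative to its treatment group's mean, r was 0.773 for H2-Aa, 0.806 for H2-Ab1, 0.799 for H2-Eb1, 0.803 for H2-DMa and 0.818 for Cd74, so the relation was as large within the groups. With any 1 array left out, r lay between 0.662 and 0.848 over the 5 genes. No batch was named in the labels, and within-batch values were not computed.

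**Figure D4:**
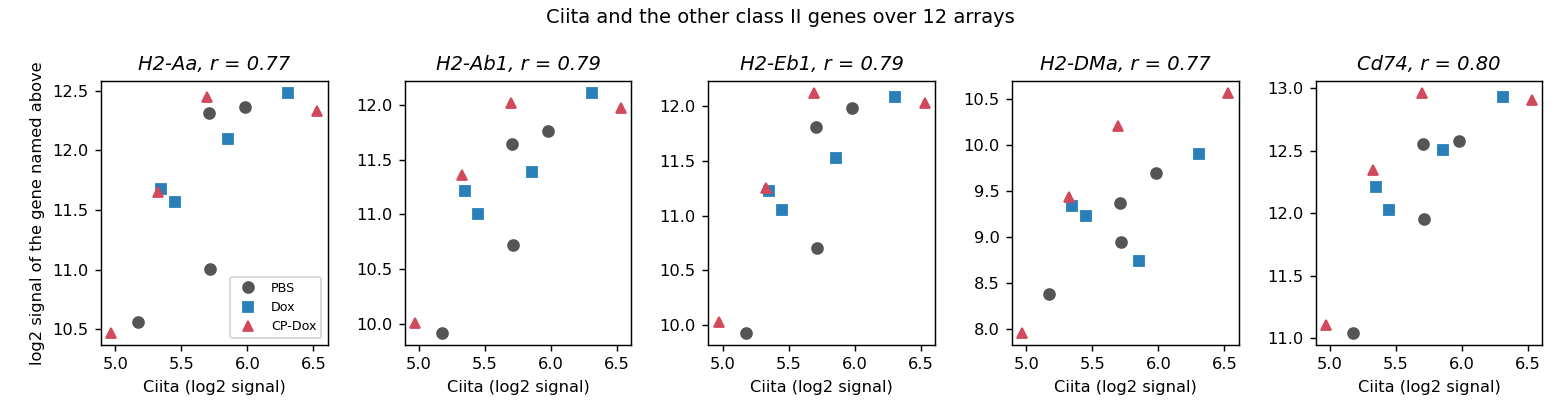
Ciita signal (log2, x axis) against that of each of the other 5 class II genes (log2, y axis, a separate scale per panel) in the 12 tumours, with the Pearson r in each title. Symbols give the treatment group. CP-Dox replicate 2 and PBS replicate 1 lie at the lower left in each panel, and PBS replicate 2 lies below the trend for H2-Aa, H2-Ab1 and H2-Eb1.

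The genes whose pattern over the 12 tumours was most like the mean of H2-Aa, H2-Ab1, H2-Eb1 and Cd74 were named by Pearson r. The first was H2-Ea (r = 0.990, rho = 0.972), annotated as an alpha chain gene of H2-E. Its values were 10.67, 11.31, 12.55 and 12.66 in PBS, 12.03, 12.39, 11.88 and 12.80 in Dox, and 11.85, 10.75, 12.67 and 12.60 in CP-Dox, and the groups overlapped. The next were Cd8b1, a CD8 coreceptor chain of cytotoxic T cells (r = 0.951), Il18r1, an interleukin 18 receptor chain (0.950), Ltb, which encodes lymphotoxin beta (0.948), and Eomes, a transcription factor of effector T and natural killer cells (0.941). Trav9d-3, a T cell receptor alpha variable segment (0.937), Cd3e, a chain of the T cell receptor complex (0.935), and Plbd1 (0.934) completed the 8. Cd8b1, Trav9d-3 and Cd3e thus encode parts of the T cell receptor or its coreceptor. Without CP-Dox replicate 2 and PBS replicate 1, the 2 lowest tumours, r for the 8 genes was 0.841 to 0.969. Of the 12387 genes other than the 6, 23 (0.186%) had r of at least 0.9, 184 (1.49%) at least 0.8 and 86 (0.694%) at or below -0.8. These are descriptions over 12 arrays, and the likeness of bulk profiles does not tell which cells made the RNA.

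None of the remaining class II genes changed either. Of the 6 on their list, 3 were measured by a single-symbol probe set (H2-DMb2, H2-Oa and H2-Ea), and 0 changed in CP-Dox against PBS (median 0.28) or in the other comparisons. H2-DMb2, a beta chain of H2-DM, had the lowest p of the list. It was at 0.48 ± 0.30 in CP-Dox against Dox (limma adjusted p = 0.440). Without CP-Dox replicate 2 the count remained 0, with a median of 0.58 against PBS.

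Of the 7 measured factors that occupy class II promoters, 1 rose and 1 fell in CP-Dox against PBS (median -0.28). Of all genes, 2.35% were called higher and 3.23% lower, and 12.1% had groups that did not overlap. Rfx5, the DNA-binding subunit of RFX on the X box, rose by 0.45 ± 0.11 (limma adjusted p = 0.0382). It was at 8.70, 8.43, 8.72 and 8.74 in CP-Dox, compared with 8.21, 8.33, 8.16 and 8.07 in PBS and 8.55, 8.20, 8.15 and 8.44 in Dox. All CP-Dox tumours were above all PBS tumours. Nfyb, the B subunit of NF-Y, which binds the Y box marked in the promoters, fell by 0.44 ± 0.10 (SE; limma adjusted p = 0.0267). Its values were 8.73, 8.70, 8.69 and 8.67 in CP-Dox and 9.03, 9.19, 9.09 and 9.25 in PBS, with no overlap, and the Dox tumours lay between 8.69 and 9.14. Over the 12 tumours r with the mean of the 4 class II genes was 0.240 for Rfx5 and 0.024 for Nfyb, and the list's median was 0.056, compared with -0.014 over all genes. Without CP-Dox replicate 2, 1 rose (Rfx5) and 3 fell (Nfyb, Rfxap and Nfyc). That fit called 9.9% of all genes higher and 9.17% lower. Both main calls were close to the threshold: that of Rfx5 was lost without CP-Dox replicate 1, 3 or 4 or PBS replicate 1, 3 or 4 (adjusted p up to 0.113), and that of Nfyb without CP-Dox replicate 1, 3 or 4 or PBS replicate 2, 3 or 4 (up to 0.0772). Without both tumours with skin markers neither gene was called, at 0.39 ± 0.15 for Rfx5 (adjusted p = 0.319) and -0.46 ± 0.13 for Nfyb (adjusted p = 0.203). That fit kept only replicates 2 and 4 of CP-Dox and called 2 genes in all. Nearly any call would be lost in it, and the part of skin tissue was not tested.

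Of the 11 proteases and related genes that process the invariant chain and antigen, 2 rose and 0 fell in CP-Dox against PBS (median 0.38). Over all genes, 2.35% were called higher and 3.23% lower, and the groups did not overlap for 12.1%. Ctsb, which encodes the endosomal protease cathepsin B, rose by 0.38 ± 0.08 (limma adjusted p = 0.0272), with 13.53, 13.36, 13.70 and 13.55 in CP-Dox against 13.17, 13.27, 13.06 and 13.13 in PBS. Cst3 encodes cystatin C, an inhibitor of such proteases, and rose by 0.32 ± 0.08 (adjusted p = 0.0423), at 13.05, 13.09, 13.29 and 13.04 in CP-Dox against 12.88, 12.80, 12.72 and 12.80 in PBS. For both genes all CP-Dox tumours lay above all PBS tumours, CP-Dox replicate 2 included. The Ctsb call was lost without CP-Dox replicate 1, 3 or 4 or PBS replicate 1, 3 or 4 (adjusted p up to 0.0868), and the Cst3 call without any 1 array other than CP-Dox replicate 2 (up to 0.122). Without both tumours with skin markers neither was called, at 0.30 ± 0.10 for Ctsb (adjusted p = 0.272) and 0.27 ± 0.09 for Cst3 (adjusted p = 0.294). Only 2 genes in all were called in that fit, so nearly any call would be lost in it. Ctss, the cathepsin that removes the invariant chain in antigen-presenting cells, was at 0.26 ± 0.26 (adjusted p = 0.565). It read 13.23, 12.17, 13.49 and 13.62 in CP-Dox and 12.62, 13.06, 12.87 and 12.93 in PBS, with CP-Dox replicate 2 lowest of all tumours, and was named here after its values were seen. Without that replicate 8 of the 11 rose (median 0.62), Ctss among them by 0.58 ± 0.14 (adjusted p = 0.0158), in a fit that called 9.9% of all genes higher. That replicate was the lowest tumour for this list, so leaving it out raises the CP-Dox mean by construction. CP-Dox replicates 1 and 3, the tumours with skin markers, stayed in the fit. The mean of the 13 macrophage markers moved with these genes, though Cd14 and Cd163 fell against PBS without CP-Dox replicate 2. That mean was -0.57 relative to the PBS mean in CP-Dox replicate 2 and 0.14 to 0.38 in the other CP-Dox tumours, and its part in the result was not tested.

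Interferon gamma induces Ciita through JAK kinases and IRF1. Of 9 measured genes on this route, 0 changed in CP-Dox against PBS (median 0.42), and Jak2 had the lowest p, at 0.53 ± 0.18 (limma adjusted p = 0.108). Among CP-Dox tumours, replicates 1, 3 and 4 had list means of 0.73, 0.85 and 1.28 relative to PBS, whereas replicate 2 had -0.68, compared with -0.29 to 0.31 in PBS and -0.27 to 0.50 in Dox. Ifng itself, named after its values were seen, read 7.43, 3.90, 7.41 and 9.25 in CP-Dox, 5.58, 4.79, 5.16 and 7.60 in Dox, and 4.63, 6.07, 5.28 and 5.43 in PBS. CP-Dox replicate 4 and Dox replicate 4, the tumours with the most Ifng signal, were also the 2 with the most Ciita signal, whereas CP-Dox replicate 2 was lowest for both. Other tumours departed from this order. CP-Dox replicate 1 had Ifng at 7.43 with Ciita at only 5.33, and Dox replicate 2 had Ifng at 4.79 with Ciita at 5.86. The relation of Ifng to Ciita was not tested. Without CP-Dox replicate 2, 5 of the 9 rose against PBS (median 0.75), among them Jak2 (0.75 ± 0.10, adjusted p = 0.00127), Irf1 (1.30 ± 0.31, adjusted p = 0.0158) and Socs1 (1.29 ± 0.34, adjusted p = 0.0234), and 4 rose against Dox. In that fit 9.9% of all genes were called higher against PBS and 9.28% were called against Dox, and the replicate left out was the lowest for this list. The fit kept CP-Dox replicates 1 and 3, the tumours with skin markers. Of the 13 macrophage markers 4 rose and 2, Cd14 and Cd163, fell against PBS in the same fit. On the helper T cell recognition list 2 of 8 rose, and the part of either list in the result was not tested. Ciita in that same fit was at 0.21 ± 0.30, as given above, and its difference was not past the test. The list's median r with the 4 class II genes over 12 arrays was 0.472.

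Over all genes, 2.35% were called higher in CP-Dox against PBS. Of 7 measured genes of class II turnover and costimulation, 1 rose in this comparison (median 0.29). This was Cd80, a ligand that gives a costimulatory signal to T cells, at 0.89 ± 0.15 (limma adjusted p = 0.00988). It read 7.33, 6.69, 7.01 and 6.86 in CP-Dox, 6.60, 6.40, 6.55 and 6.87 in Dox, and 6.25, 6.15, 5.77 and 6.18 in PBS, so all CP-Dox and all Dox tumours were above all PBS tumours. Groups did not overlap for 12.1% of all genes in CP-Dox against PBS and 3.84% in Dox against PBS. Dox minus PBS was 0.52 ± 0.15 for Cd80 (adjusted p = 0.995). The CP-Dox call for Cd80 was kept with each of the 12 arrays left out in turn (adjusted p up to 0.0369). Without both tumours with skin markers Cd80 was at 0.69 ± 0.17 (adjusted p = 0.142) and not called. Since that fit called 2 genes in all, nearly any call would be lost in it. Without CP-Dox replicate 2, 4 of the 7 rose, and the other 3 were Cd86, Cd40 and Il10. In that fit 9.9% of all genes were called higher against PBS, and the replicate left out was the lowest tumour for this list. Both CP-Dox tumours with skin markers remained in it. Of 8 measured genes of helper T cell recognition, 0 changed in any comparison. Lag3, a receptor that binds class II, had the lowest p (CP-Dox against PBS 0.56 ± 0.28, adjusted p = 0.246). Without CP-Dox replicate 2, Lag3 and Cd28 rose against PBS, and that tumour was the lowest for this list too. The T cell list had the highest median r with the class II genes of the 12 lists, 0.9005, with Cd40lg lowest at 0.046.

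Markers of the cells that could carry class II were summed up as list means relative to the PBS mean. The 6 class II genes themselves ranged from -0.91 to 0.65 in PBS, -0.02 to 0.89 in Dox and -0.99 to 0.98 in CP-Dox. Macrophage markers (13 genes) ranged from -0.11 to 0.14, 0.08 to 0.44 and -0.57 to 0.38. Dendritic cell markers (8 genes) stayed within -0.33 to 0.37, -0.16 to 0.00 and -0.13 to 0.14, and B cell markers (7 genes) within -0.11 to 0.11, 0.06 to 0.20 and -0.13 to 0.13. The helper T cell recognition list, whose Cd3 chains are not restricted to helper T cells, ranged from -0.48 to 0.45, -0.08 to 0.55 and -0.79 to 0.75. The class II genes spanned more than any of these 4 lists, and the part of each cell type in them was not tested. Dim markers such as Ms4a1 (4.13 to 4.76) and Xcr1 (5.00 to 5.80) may have little room to move. A narrow span of the B cell or dendritic cell list therefore does not show a constant number of cells.

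The median r with the 4 class II genes was 0.670 for macrophage, 0.506 for dendritic cell and 0.224 for B cell markers. Csf1r, the receptor for macrophage colony-stimulating factor, was at 0.911, and Cd14 at -0.658. Among B cell markers, Cd79a, part of the B cell receptor, read between 5.00 and 5.33 in all tumours. No marker of these 3 lists changed in CP-Dox against PBS, and 0 changed in the other comparisons. By list, the genes with the lowest p were Itgax, Cd163 and Pax5. Itgax was at 0.53 ± 0.26 (limma adjusted p = 0.239) and Pax5 at -0.28 ± 0.11 (0.168) in CP-Dox against PBS. Cd163 was at -1.92 ± 0.52 in CP-Dox against Dox (0.138), all CP-Dox below all Dox. Cd163 and Mrc1 were also lower in all CP-Dox than in all PBS tumours, and neither was called. Groups did not overlap for 9.63% of all genes in CP-Dox against Dox and 12.1% in CP-Dox against PBS. Without CP-Dox replicate 2, 1 dendritic cell marker, 4 macrophage markers and 1 B cell marker rose against PBS and 2 macrophage markers, Cd14 and Cd163, fell. That fit called 9.9% of all genes higher and 9.17% lower.

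Tissue around the tumour was read the same way. Skeletal muscle markers (10 genes) ranged from -2.81 to 3.63 in PBS, -2.71 to 1.74 in Dox and -0.57 to 2.02 in CP-Dox. Dox replicate 4, with the highest class II mean of the 4 genes, had little muscle signal (-2.67), and PBS replicate 1, with the lowest, also had little (-2.69), whereas PBS replicates 3 and 4 were high for both. Keratinocyte and skin markers (10 genes) were at 2.66 and 4.05 in CP-Dox replicates 1 and 3 and within -0.18 to 0.10 in all other tumours, which included both the highest and the lowest for class II. The median r with the mean of the 4 class II genes was 0.469 for the muscle markers, from 0.264 for Myh1 to 0.523 for Myh4. For the skin markers it was 0.273. The part of either tissue in the class II signal was not tested. Of the muscle and skin lists 0 genes were called in the 3 comparisons. The lowest p were those of Sprr1a (1.41 ± 0.56 in CP-Dox against PBS, limma adjusted p = 0.161) and Myh1 (4.84 ± 1.67 in CP-Dox against Dox, 0.208). Without CP-Dox replicate 2, 5 skin genes rose against PBS, in a fit that called 9.9% of all genes higher. Of 9 colon epithelial markers, Krt8 read 9.17 to 12.05 and Krt18 5.74 to 10.33, while Cdx1 (4.01 to 4.43), Cdx2 (5.06 to 5.44) and Vil1 (4.24 to 4.62), which mark intestinal cells, were low and nearly constant. Cdh1 rose in CP-Dox against PBS by 1.25 ± 0.33 (adjusted p = 0.0483), a call lost without any 1 array other than CP-Dox replicate 2. Without both tumours with skin markers its difference was smaller, at 0.60 ± 0.18 (adjusted p = 0.212), and not called. Nearly any call would be lost in that fit, which called 2 genes in all. Krt8 ran opposite to class II over the 12 tumours (r = -0.782), the lowest r of the 9 colon epithelial markers. Their median r was -0.095, and the highest was 0.577, for Krt19.

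**Figure D5:**
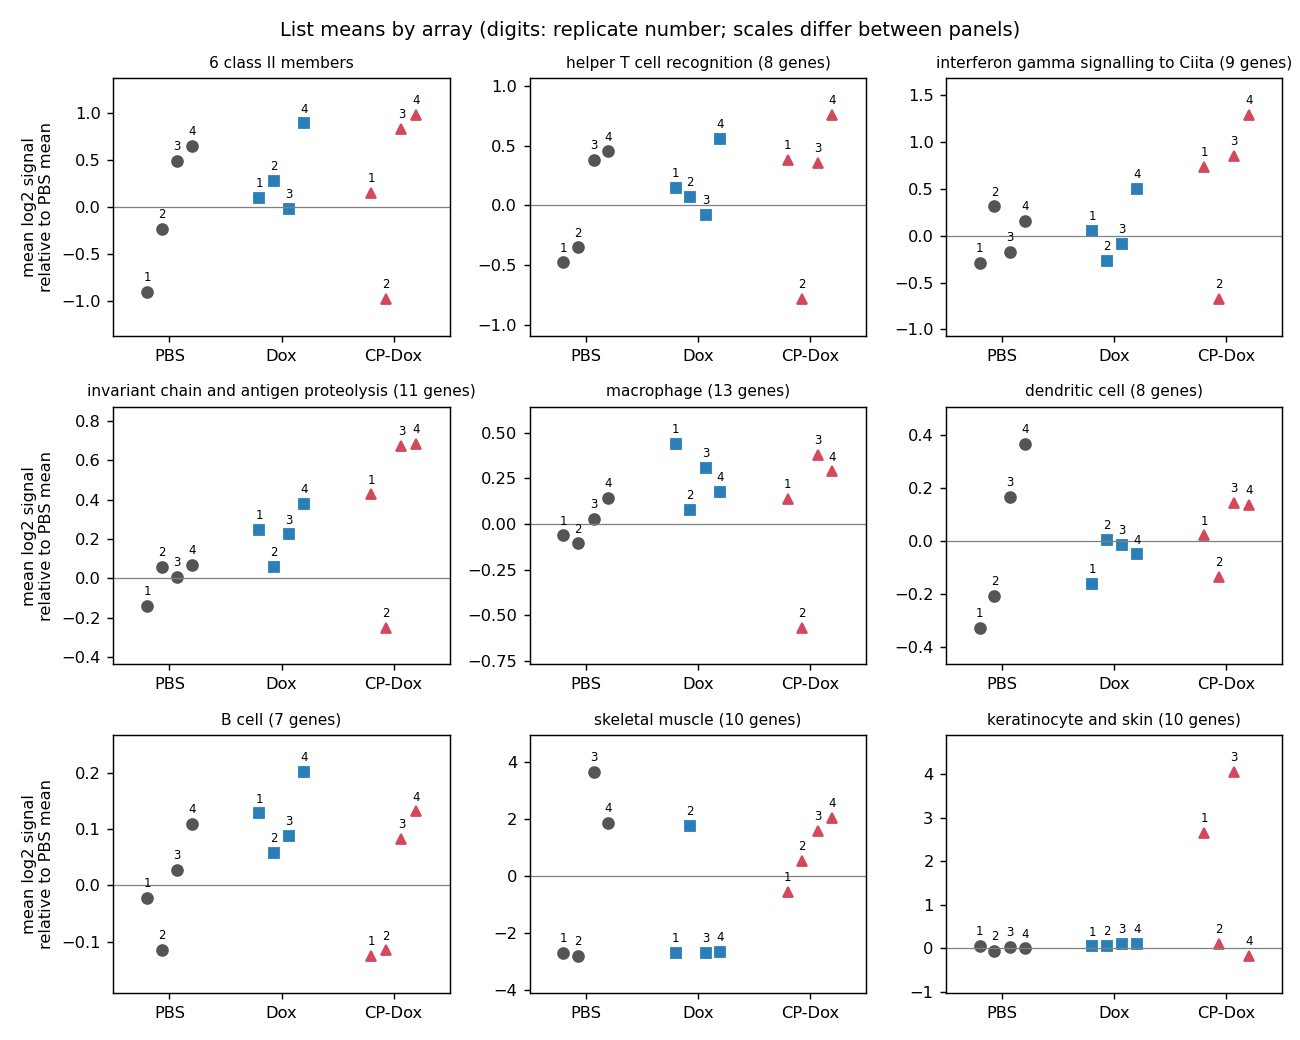
Mean log2 signal relative to the PBS mean (y axis, a separate scale per panel) of the 6 class II genes and of 8 lists in each tumour, by treatment group. Points are single tumours with their replicate number. CP-Dox replicate 2 is the lowest tumour for the class II genes and for the helper T cell recognition, interferon gamma, proteolysis and macrophage lists. Skin markers are high in CP-Dox replicates 1 and 3 alone.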

How the data were processed

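Per the labels' protocols, tumours were stored in RNAlater and biotin-labelled cRNA was made from their total RNA. The authors deposited RMA signals on the log2 scale. The submitters' processing notes name RMA and Partek, with no versions, and no further normalization was applied here. Of 22690 probe sets, 64 controls, 691 with several symbols and 1555 with none were left out. For the 4956 genes with several probe sets, the one with the highest mean was fitted. Gene IDs of 20351 probe sets matched RefSeq.

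Groups came from the titles, and replicate numbers name separate mice. All 12 arrays entered 1 limma fit (3.58.1, R 4.3.3; lmFit, eBayes), checked on simulated data, with Benjamini-Hochberg adjustment over 12393 genes at 0.05. Relations of Ciita used 100000 permutations. Precision is set by the number of arrays.

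The 6 members and 12 lists (117 genes, 102 measured) were chosen with earlier results of these data known. Of each list, the text names the genes called in any comparison by lowest p, or else the 1 with the lowest p, and the 8 genes most like the class II mean. Other genes were named after their values were seen, among them those in fits without CP-Dox replicate 2. Alternatives covered probe sets, normalization, a filter on dim genes, the variance model, weights, groups, pairing and arrays left out. List counts without CP-Dox replicate 2, the alternatives for single listed genes and the promoter letters were added after the data were seen.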

Additional observations from a re-analysis of the deposited data

Results flagged for a closer look

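In 96 groups of 4 tumours (the class II genes, the named listed genes and the genes most like them), Dixon's test of the gap between an extreme tumour and its nearest neighbour marked 2, fewer than the 5% that chance gives. No class II gene was among them. Rfx5, the RFX subunit that binds class II promoters, read 8.43 in CP-Dox replicate 2, below the 8.70 to 8.74 of its group. Myh1, a skeletal muscle myosin gene, read 8.96 in Dox replicate 2, above the 3.66 to 3.78 of its group.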

How the results depend on the processing

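Under all 23 alternatives, 0 of the 6 class II genes were called in any comparison. Of 411 recomputed fold changes 0 passed the threshold and 40 changed sign, and the lowest limma adjusted p was 0.0794, for H2-DMa in CP-Dox against PBS without CP-Dox replicate 2. The filter on dim genes left Ciita out. With array weights, Ciita in CP-Dox against PBS was at 0.13, and CP-Dox minus Dox was 0.14 for H2-Aa, 0.30 for H2-Ab1, 0.26 for H2-Eb1, 0.28 for Cd74 and 0.072 for Ciita. Without both arrays with skin markers, CP-Dox minus PBS was -0.16 for H2-Aa, -0.020 for H2-Ab1, -0.079 for H2-Eb1, -0.028 for Cd74 and 0.11 for Ciita, and CP-Dox minus Dox was -0.040 for H2-DMa and 0.0099 for Ciita, and -0.55, -0.44, -0.44 and -0.41 for H2-Aa, H2-Ab1, H2-Eb1 and Cd74. With 1 array left out in turn, CP-Dox minus PBS ranged from -0.17 to 0.58 for H2-Aa, -0.0335 to 0.77 for H2-Ab1, -0.14 to 0.69 for H2-Eb1, -0.035 to 0.70 for Cd74, -0.31 to 0.21 for Ciita and 0.10 to 0.97 for H2-DMa. Dox minus PBS ranged from -0.028 to 0.66 for H2-Eb1, -0.035 to 0.40 for H2-DMa and -0.092 to 0.23 for Ciita. CP-Dox minus Dox ranged from -0.47 to 0.19 for H2-Aa, -0.31 to 0.36 for H2-Ab1, -0.37 to 0.33 for H2-Eb1, -0.10 to 0.76 for H2-DMa, -0.30 to 0.32 for Cd74 and -0.41 to 0.11 for Ciita. The cause was not tested.

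Over all genes, CP-Dox against PBS gave 1099 calls with every probe set a feature, 2665 with array weights (1306 higher and 1359 lower), 198 with only those 2 groups in the fit, 2 without both skin arrays and 214 to 2363 with 1 array left out. Dox against PBS gave 2 with another quantile normalization, 2 with only its 2 groups, 1 without the skin arrays and 0 to 2 with 1 array left out. CP-Dox against Dox gave 43 with another quantile normalization, 47 without the dimmest 40% of genes, 15 with robust eBayes, 1960 with array weights, 0 with only its 2 groups, 8 with the replicate block, 0 without the skin arrays and 1 to 1150 with 1 array left out. The same replicate number names separate mice. The correlations of same-numbered deviations were -0.311 to 0.505. Differently numbered arrays were not compared, so whether a number marks a shared run was not tested. With the replicate block CP-Dox against PBS gave 995 calls. The relations of Ciita kept their sign throughout.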
